A study of Mus musculus with 24 samples.

Results

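Regulatory T cells (Treg) sorted from wild-type (WT) mice were compared with resting naive CD4 T cells sorted from WT mice, across all genes of an Agilent mouse expression array. The comparison was chosen by the sample labels alone and holds 8 of the 24 arrays of the study, 4 labelled Treg and 4 labelled unstimulated T cells. The mice were female C57BL/6, and in each of these groups replicates 1 to 3 came from mice aged 6 weeks and replicate 4 from mice aged 7 weeks. The labels give both groups the treatment unstimulated. Naive cells were sorted as CD4+ and CD25-, Treg as CD4+ and CD25+, with a further surface marker positive in both, so the gene for CD25, Il2ra, was used to choose the cells and its difference is no finding. The study also held WT naive cells stimulated for 13 h with plate-coated anti-CD3 and anti-CD28, and the same 3 states from mice with a T cell-specific conditional knockout of Trim28 (CKO). The ages of the CKO naive arrays were the same, while in WT stimulated cells and CKO Treg replicates 1 and 4 came from mice aged 7 weeks and replicates 2 and 3 from mice aged 6 weeks. For the CKO Treg the labels give the treatment as TCR-stimulated, although the study design speaks of stimulation for naive cells only, and this was not resolved. The labels do not say that the arrays of a group came from separate mice, and the spread that the p-values rest on may then be technical.

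Treg are the CD4 T cells that restrain other immune cells, and their identity depends on the forkhead transcription factor Foxp3. They carry all chains of the high-affinity interleukin-2 (IL-2) receptor at rest, take up IL-2 without making much of it, and suppress through the inhibitory receptor CTLA-4, secreted IL-10 and the conversion of extracellular ATP to adenosine by the surface enzymes CD39 (Entpd1) and CD73 (Nt5e). Naive CD4 T cells are quiescent cells that recirculate through lymph nodes by means of the homing receptor CCR7, under factors such as Lef1, Tcf7, Klf2 and Foxo proteins.

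The promoters of a few genes on which the comparison turned are shown to place them in the genome. They are the 250 bases before the transcription start in RefSeq on GRCm38.p6, written 5′ to 3′ on the strand of the gene, with capitals marking motifs found on either strand. Foxp3, Il2ra and Ctla4 were among the genes higher in Treg, and Pdlim4, Dapl1 and Lef1 among those lower. Foxp3 has 2 starts in the table, and both are given.
Foxp3 upstream start (chrX:7579426-7579675, plus strand): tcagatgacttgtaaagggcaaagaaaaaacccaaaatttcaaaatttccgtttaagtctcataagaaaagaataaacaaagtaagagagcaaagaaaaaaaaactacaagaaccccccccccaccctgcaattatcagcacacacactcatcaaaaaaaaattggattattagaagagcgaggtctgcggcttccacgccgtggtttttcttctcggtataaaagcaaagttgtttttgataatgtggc
Foxp3 downstream start (chrX:7580233-7580482, plus strand): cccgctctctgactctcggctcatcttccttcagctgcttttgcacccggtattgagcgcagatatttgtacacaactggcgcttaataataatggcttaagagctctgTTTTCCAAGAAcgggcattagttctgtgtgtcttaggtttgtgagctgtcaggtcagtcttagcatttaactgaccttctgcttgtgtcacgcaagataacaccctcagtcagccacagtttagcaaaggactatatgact
Il2ra (chr2:11642542-11642791, plus strand): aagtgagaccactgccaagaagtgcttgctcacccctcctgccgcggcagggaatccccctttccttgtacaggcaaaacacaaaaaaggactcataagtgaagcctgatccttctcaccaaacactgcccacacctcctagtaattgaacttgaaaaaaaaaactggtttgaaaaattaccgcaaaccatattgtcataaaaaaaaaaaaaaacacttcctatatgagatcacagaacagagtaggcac
Ctla4 (chr1:60908775-60909024, plus strand): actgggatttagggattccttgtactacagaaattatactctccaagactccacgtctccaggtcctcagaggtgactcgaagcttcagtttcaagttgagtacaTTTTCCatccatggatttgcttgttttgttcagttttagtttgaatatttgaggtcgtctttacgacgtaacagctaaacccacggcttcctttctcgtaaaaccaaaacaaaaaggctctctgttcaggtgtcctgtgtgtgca
Pdlim4 (chr11:54069018-54069267, minus strand): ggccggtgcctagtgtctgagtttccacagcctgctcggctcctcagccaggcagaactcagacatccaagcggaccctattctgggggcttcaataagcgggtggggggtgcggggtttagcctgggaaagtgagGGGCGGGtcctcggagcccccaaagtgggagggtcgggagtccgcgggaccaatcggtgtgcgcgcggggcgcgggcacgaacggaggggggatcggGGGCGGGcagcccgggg
Dapl1 (chr2:59484403-59484652, plus strand): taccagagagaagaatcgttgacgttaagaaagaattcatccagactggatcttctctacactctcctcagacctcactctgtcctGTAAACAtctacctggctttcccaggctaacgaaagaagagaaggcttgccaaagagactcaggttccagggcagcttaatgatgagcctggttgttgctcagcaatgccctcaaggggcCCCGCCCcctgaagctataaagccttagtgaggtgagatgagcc
Lef1 first of 4 starts (chr3:131110047-131110296, plus strand): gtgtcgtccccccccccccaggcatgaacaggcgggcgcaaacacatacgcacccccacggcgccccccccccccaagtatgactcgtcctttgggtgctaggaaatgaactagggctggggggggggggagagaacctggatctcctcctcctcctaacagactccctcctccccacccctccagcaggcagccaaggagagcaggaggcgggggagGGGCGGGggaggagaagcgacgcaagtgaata

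A set of 10 motifs was searched: GTAAACA (forkhead), CCGGAAGT (ETS), CTTTGAT (TCF/LEF), TGACGTCA (CRE), an NF-kappaB motif, TGTGGTT (RUNX), GGAAAA (NFAT), TGANTCA (AP-1), TTCNNNGAA (STAT) and GGGCGGG (GC box). The downstream Foxp3 start had an NFAT motif overlapping a STAT motif, Ctla4 had an NFAT motif, Dapl1 a forkhead motif and a GC box, Pdlim4 2 GC boxes and the Lef1 start a GC box. None of the 10 motifs was in the Il2ra window or at the upstream Foxp3 start, which says only that these letters are not in those windows. The table held 13041 promoters of 10289 of the 16488 genes tested. The forkhead motif was in 3.72% of the 967 promoters of genes called at least 2-fold higher in Treg, in 2.12% of the 897 of genes called at least 2-fold lower and in 2.27% of all promoters. The AP-1 motif was in 6.31%, 3.9% and 4.55% and the STAT motif in 7.65%, 5.02% and 6.01% of the same sets. The ETS motif ran the other way, with 3% of promoters of higher genes, 4.46% of lower genes and 5.56% of all. The NFAT motif was about as frequent in each set, at 18.3%, 18.5% and 18.3%. These shares are descriptions of sequence and were not tested.

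The defining genes of each cell type were present where the labels put them. Foxp3, Itgae and Ctla4 were well above their naive levels on every Treg array, and the T cell receptor genes Cd3d, Cd3e and Cd3g were well above background on all 8 arrays. Trim28, the gene deleted in CKO mice, lay between 1.81 and 2.24 in WT Treg and between 2.31 and 2.57 in WT naive cells, against 0.20 to 0.67 on CKO Treg and 0.58 to 1.29 on CKO naive arrays. These and all levels below are log2 signals relative to the 75th percentile of the array, so that 0 is the signal at that percentile. The level of one gene cannot be set against that of another, since probes differ in brightness. The 75th percentile signal was 53.9 to 200 on Treg arrays and 165 to 293 on naive arrays, so the ranges overlapped, and 48.3% to 59.0% of probes were well above background in Treg and 54.7% to 58.4% in naive cells. Treg replicate 4 was the dimmest of the 8. Arrays of one group correlated at 0.963 to 0.988 for naive cells and 0.969 to 0.984 for Treg across genes, which are not independent replicates.

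Of 16488 genes tested, 7973 (48.4%) were called at a limma adjusted p under 0.05, 3119 higher in Treg (18.9% of genes) and 4854 lower (29.4%). Most of these differences were small: 5161 of the called genes (64.7%) differed by less than 2-fold. At least 2-fold, 1806 genes were higher and 1006 lower, and at least 8-fold, 132 were higher and 47 lower. The large differences were thus mostly gains and the small ones mostly losses. With normexp background correction 11552 genes were called, and the share of calls that were higher in Treg was 54.2% in place of 39.1%. Differences below are log2, Treg minus naive, with the standard error of the fit, from 4 arrays against 4. An adjusted p is limma's, with Benjamini-Hochberg adjustment over all genes. A gene is said to have risen or fallen only where it was called. Counts of list members below are to be read beside the 18.9% higher and 29.4% lower of all genes.

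**Figure D1:**
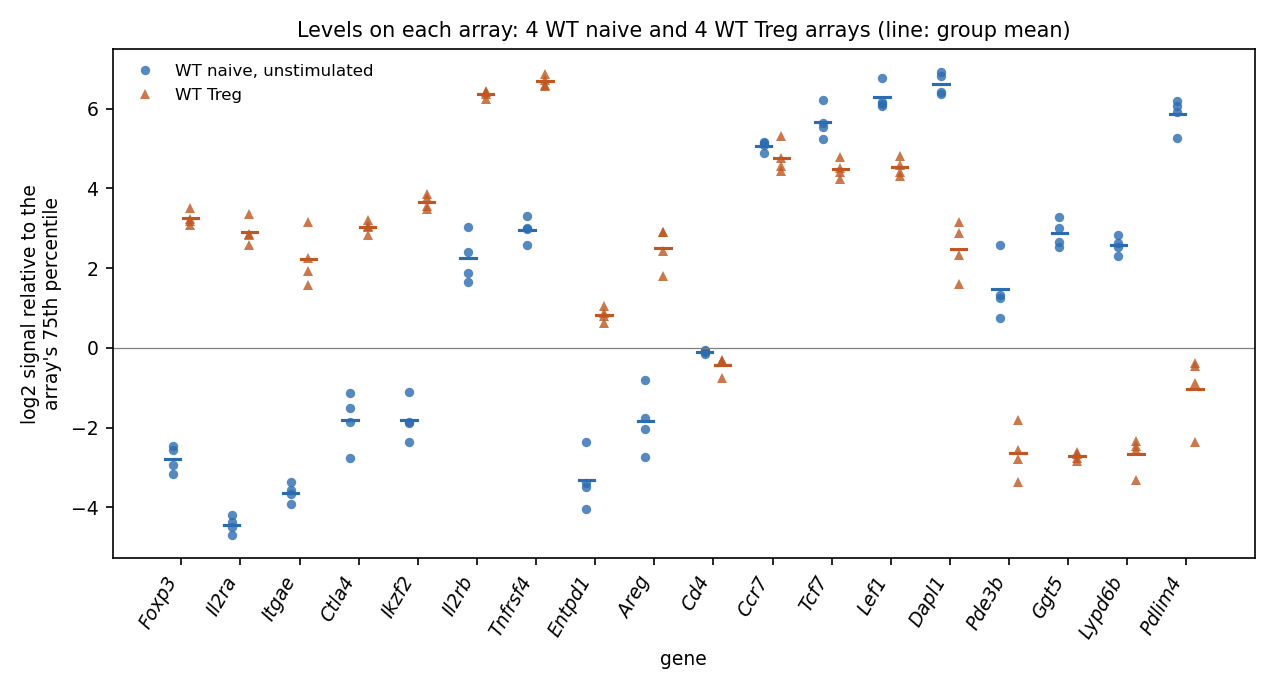
Level of 18 genes on each of the 4 WT naive (circles) and 4 WT Treg (triangles) arrays, as log2 signal relative to the 75th percentile of the array, with group means as lines. From Foxp3 to Areg the Treg arrays lie above all naive arrays, Cd4 and Ccr7 were not called, and from Tcf7 to Pdlim4 the Treg arrays lie below.

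Foxp3 stood at 3.52, 3.09, 3.23 and 3.19 on the Treg arrays and at -2.46, -2.57, -3.16 and -2.94 on the naive arrays. The groups lay far apart, with a difference of 6.04 ± 0.20, or 65.6-fold (adjusted p = 9.94e-15). Flicr, a long noncoding RNA next to Foxp3, read 1.35, 1.58, 2.02 and 1.82 in Treg and -3.17, -2.96, -3.29 and -2.32 in naive cells, a difference of 4.63 ± 0.20. Ctla4, the inhibitory receptor that binds CD80 and CD86, read 2.83, 3.03, 3.06 and 3.21 in Treg and -1.5, -1.87, -2.75 and -1.14 in naive cells, a difference of 4.85 ± 0.28. Itgae, the integrin chain CD103 that binds E-cadherin on epithelium, read 2.26, 1.93, 1.58 and 3.15 in Treg and -3.57, -3.36, -3.91 and -3.67 in naive cells. Its difference was 5.86 ± 0.33, with Treg replicate 4 the highest array. Il2ra, the gene behind the sort, read 3.37, 2.59, 2.84 and 2.86 against -4.18, -4.37, -4.5 and -4.70, a difference of 7.35 ± 0.16. None of these 5 genes overlapped between the groups, and neither did 5743 of all 16488 genes (34.8%).

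Of 39 Treg surface and effector molecules tested, 34 rose (87.2%) and none fell, beside 18.9% and 29.4% of all genes. Their median difference was 2.91, or 2.69 with the members that naive cells did not show above background held at their bounds, against -0.09 for all genes. On the slides that carried both groups the median was 2.27 on slide 3 and 3.05 on slide 6. After Il2ra the members with the largest measured differences were Socs2 (6.36 ± 0.29), a feedback inhibitor of cytokine signalling, and Plagl1 (5.98 ± 0.28), a zinc finger factor. Il1rl1, the IL-33 receptor ST2, followed at 5.19 ± 0.35, with naive arrays well above background only on 2 of 4. Penk, which encodes proenkephalin, differed by 4.84 ± 0.51 and the growth factor Areg by 4.35 ± 0.37. Areg read 2.91, 2.91, 1.81 and 2.44 in Treg and -2.04, -1.76, -2.73 and -0.80 in naive cells. The semaphorin and VEGF coreceptor Nrp1, a surface marker of thymus-derived Treg, read -0.37, -0.30, -0.21 and 0.35 against -4.40, -3.99, -4.82 and -4.05, a difference of 4.18 ± 0.33. Itgb8, the integrin chain that activates latent TGF-beta, was well above background on all 4 Treg arrays and on no naive array, so it was at least 28.1-fold higher. Its limma adjusted p of 6.77e-12 is for the fitted difference, which uses naive values below background, and does not test this bound. Such bounds hold for the processing as reported, and over the alternatives run the smallest difference of Itgb8 was 2.18. Among the 5 members that missed the threshold were Tgfb1 (-0.12), Lgals1 (0.19), Glrx (0.49) and Cst7 (0.55).

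Among 34 transcription factors linked to Treg, 21 rose (61.8%) and 4 fell (11.8%), with a median of 0.84. Behind Foxp3 came the Ikaros family members Ikzf2 (Helios) and Ikzf4 (Eos). Ikzf2 read 3.48, 3.55, 3.85 and 3.77 in Treg and -1.88, -1.10, -1.85 and -2.36 in naive cells, and its 4 other kept probes differed by 3.99 to 6.27 beside 5.46 ± 0.23 for the brightest. Ikzf4 differed by 3.27 ± 0.25. The basic helix-loop-helix factor Bhlhe40 rose by 3.03 ± 0.25, the nuclear receptors Nr4a2 and Nr4a3 by 2.33 ± 0.37 and 2.10 ± 0.39, and the aryl hydrocarbon receptor Ahr by 2.15 ± 0.23. Factors of other helper lineages were among the rises too. Rora, a nuclear receptor of the Th17 lineage, rose by 2.00 ± 0.22, Gata3 of the Th2 lineage by 0.69 ± 0.15 and Maf by 1.07 ± 0.24. The calls of Gata3 and Maf were lost under normexp background correction, at 0.09 and 0.42. Gata1, best known from red cell and platelet precursors, read -0.48, -0.60, -0.56 and -0.72 in Treg and -3.02, -2.43, -2.80 and -3.41 in naive cells, a difference of 2.33 ± 0.23. The other 6 erythroid and platelet markers tested did not pass the test. Tbx21, the Th1 factor T-bet, differed by -0.07 ± 0.45 and Bcl6 of follicular helper cells by 0.32 ± 0.18, neither called. The factors that fell were Id2 (-1.23 ± 0.14), Cbfb (-0.93 ± 0.16), Runx3 (-0.78 ± 0.20) and Runx1 (-0.38 ± 0.10), and 3 of these 4 are RUNX proteins or their partner. The other kept probe of Cbfb differed by -0.02 and that of Runx1 by -0.08, so those falls rest on the brightest probe.

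The IL-2 receptor chains did not move together. Il2rb, the beta chain shared with the IL-15 receptor, read 6.43, 6.36, 6.25 and 6.45 in Treg and 1.88, 2.40, 1.66 and 3.04 in naive cells, a difference of 4.13 ± 0.26. Il2rg, the common gamma chain, read 1.72, 1.58, 1.51 and 1.93 in Treg and 2.87, 3.02, 2.92 and 1.64 in naive cells. It fell by 0.93 on the log2 scale (SE 0.32), although naive replicate 4 lay within the Treg range. Il7r, the receptor for the survival cytokine IL-7, read 4.19, 3.90, 3.57 and 3.90 in Treg and 5.05, 4.78, 4.67 and 4.73 in naive cells, a difference of -0.92 ± 0.30, while its 2 other kept probes differed by -0.49 and 0.54. Il2rg and Il7r were named after their values were seen. The call of Il2rg was lost without any of naive replicates 1, 2 or 3 or Treg replicate 3, and that of Il7r without Treg replicate 3. The IL-2 gene itself was not well above background on any Treg array and was so on 3 of 4 naive arrays, with no fold that the background allows. Across 23 STAT and SOCS genes 9 rose and 4 fell, with a median of 0.16 that turned to -0.24 with normexp background correction. The rises included feedback targets of STAT5: Cish rose by 2.69 ± 0.25 and the kinase gene Pim1 by 1.44 ± 0.24, beside Socs2. Stat5a, which encodes a STAT5 protein, rose by 0.73 ± 0.18, a call lost with normexp (0.09) and on the arrays of the shared slides (0.56). Of the falls Pim2 was the largest at -1.18 ± 0.15, and Jak1 was at -0.54 ± 0.11.

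Of 29 cytokine receptors 10 rose (34.5%) and 9 fell (31.0%). Il1r2, the decoy receptor for IL-1, rose by 3.38 ± 0.46 and Il12rb1 of the IL-12 and IL-23 receptors by 1.73 ± 0.20. Tgfbr2, the type II TGF-beta receptor, fell from 5.64, 5.60, 5.69 and 5.55 in naive cells to 4.38, 3.95, 3.81 and 4.14 in Treg, a difference of -1.55 ± 0.12. Its 2 other kept probes differed by -0.97 and 0.34. In the TGF-beta and SMAD list of 28 genes, 9 rose and 10 fell. Beside Itgb8, its partner chain Itgav rose by 1.36 ± 0.24 and the activin receptor Acvr2a by 2.15 ± 0.45, while the receptors Acvrl1 and Tgfbr3 and the coreceptor Eng fell by 3.06, 2.64 and 1.90 on the log2 scale. Each of these last 3 was well above background on all naive arrays but on 2 Treg arrays at most, and under normexp background correction Acvrl1 was not called, Tgfbr3 stood at 0.27 and Eng at 0.67.

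Costimulatory and inhibitory receptors were mostly higher in Treg. Of 21 CD28 family and coinhibitory receptors 13 rose (61.9%) and 3 fell (14.3%), with a median of 0.76. Pdcd1, which encodes PD-1, rose by 1.82 ± 0.16, the gene for its ligand PD-L2, Pdcd1lg2, by 2.83 ± 0.24, Lag3 by 1.97 ± 0.33, Havcr2 (TIM-3) by 2.23 ± 0.44 and Klrg1 by 3.74 ± 0.65. Icos read 5.23, 4.90, 4.96 and 5.25 in Treg and 4.82, 4.01, 3.94 and 4.54 in naive cells, a smaller rise of 0.76 ± 0.21 whose call was lost with normexp (0.06). Cd28, the founding member of the family, differed by 0.19 ± 0.18 and was not called. Cd80, the ligand of CTLA-4 and CD28 better known from antigen-presenting cells, was well above background on all Treg arrays (-2.41, -0.87, -1.35 and -1.04) and on 1 naive array. The inhibitory collagen receptor Lair1 fell by 1.80 on the log2 scale (SE 0.31).

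Within the TNF receptor superfamily and its ligands 11 of 30 genes rose and 8 fell, with a median of 0.13 (-0.05 with normexp background correction). The 2 largest rises were of receptors and the 3 largest falls of ligands. Tnfrsf4 (OX40) read 6.87, 6.60, 6.57 and 6.71 in Treg and 2.97, 3.00, 2.58 and 3.31 in naive cells, a difference of 3.72 ± 0.18. Tnfrsf9 (4-1BB) rose by 2.62 ± 0.26, Tnfrsf18 (GITR) by 1.14 ± 0.21 and Tnfrsf1b (TNF receptor 2) by 1.07 ± 0.21, and the last 2 were not called with normexp (0.44 and 0.52). Cd40lg, by which helper T cells engage B cells, fell by 2.80 on the log2 scale (SE 0.37) and was well above background on 1 Treg array, but stood at -0.03 and was not called under normexp background correction. Fasl, the death ligand, fell by 1.68 (SE 0.22). Tnfsf4, the ligand of OX40, was above background on all naive arrays and no Treg array, and was at least 1.12-fold lower in Treg. The difference of Tnfsf4 took the other sign (0.79) under normexp background correction.

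Chemokine receptors and egress genes rose in 10 of 25 cases (40.0%) and fell in 2 (8.0%), with a median of 0.56. Ccr6 and Ccr4, receptors of T cells that enter inflamed tissue, rose by 2.99 ± 0.38 and 2.16 ± 0.32. Ccr8, linked to skin, was above background in Treg only and at least 6.40-fold higher, and Gpr15, linked to the colon, at least 5.15-fold higher. The orphan receptor gene Gpr83 rose by 2.92 ± 0.20. The genes that fell were Gpr183 (-1.84 ± 0.26), the oxysterol receptor that positions cells in lymphoid tissue, and Gpr18 (-1.74 ± 0.22). Ccr7 read 5.32, 4.56, 4.43 and 4.76 in Treg and 5.17, 5.13, 4.88 and 5.10 in naive cells, and the egress receptor S1pr1 differed by -0.35 ± 0.29, neither called. Of 32 integrins and adhesion genes 12 rose and 11 fell, with a median of 0.14 (-0.26 with normexp background correction). Beside Itgae and Itgb8, Alcam rose by 1.64 ± 0.40 and Itgb1 by 1.46 ± 0.28, while Sema4a fell by 2.30 (SE 0.21), Ly6a by 1.98 (SE 0.36), Itgb3 by 1.74 (SE 0.20) and Ly6c1 by 1.49 (SE 0.34) on the log2 scale.

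Of 30 secreted mediators 9 rose (30%) and 7 fell (23.3%), beside 18.9% and 29.4% of all genes, with a median of 0.03. With normexp background correction 16 rose and 6 fell, with a median of 0.94. Il10, the suppressive cytokine, read -2.02, -1.92, -1.73 and -0.99 in Treg and -4.98, -4.38, -5.38 and -4.67 in naive cells, a difference of 3.19 ± 0.26. Ebi3, a subunit of IL-27 and IL-35, rose by 2.91 ± 0.41 and the macrophage growth factor Csf1 by 2.91 ± 0.19. The cytotoxic genes went both ways: Gzmb rose by 1.74 ± 0.43, whereas Gzma and the pore-forming Prf1 fell by 4.29 (SE 0.55) and 2.93 (SE 0.24). Prf1 read 0.48, -0.33, -0.06 and -0.03 in Treg and 2.54, 3.01, 3.03 and 3.19 in naive cells. Ifng differed by 0.11 ± 0.40, with the groups overlapping, and Tgfb1 did not pass the test. Of the ectoenzymes, Entpd1 rose by 4.16 ± 0.41 and Nt5e by 2.69 ± 0.63. In the wider list of 25 cAMP and adenosine genes 9 rose and 5 fell. The adenosine receptor Adora2a rose by 1.24 ± 0.22 (0.60 and not called with normexp) and the prostaglandin E receptors Ptger2 and Ptger4 by 1.79 ± 0.25 and 1.27 ± 0.17. Pde3b, a cAMP-degrading phosphodiesterase, fell from 1.24, 0.76, 1.32 and 2.57 in naive cells to -2.79, -2.55, -3.36 and -1.81 in Treg, a difference of -4.10 ± 0.35, the lowest of that list.

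Markers of CD8 and NK cells and of B cells were lower in Treg where they were called, with 1 exception, and several of those calls were lost with another background correction. Of 19 tested markers of CD8, NK and unconventional T cells none rose and 10 fell (52.6%), with a median of -1.23. With normexp background correction 4 rose and 5 fell, with a median of -0.14, and among the 10 with probes above background on all compared arrays none rose and 4 fell, with a median of -0.60. Klrd1 (CD94) fell by 4.22 (SE 0.46), Klra7 by 3.98 (SE 0.69) and Klrc1 by 3.35 (SE 0.57) on the log2 scale. Under normexp background correction Klra7 stood at -0.40 and Klrc1 at 0.19, and neither was called. The summed level of the 19 tested markers, as multiples of the 75th percentile signal, was 35.6 to 72.9 on naive and 23.9 to 32.3 on Treg arrays. Cd8a itself was not called (0.54 ± 0.51) and was above background on 2 Treg and 3 naive arrays. Of 19 B cell markers 10 fell (52.6%) and 1 rose, with a median of -1.57. Their summed levels were 19.0 to 51.0 in naive cells and 14 to 23.5 in Treg. With normexp 6 fell and none rose, with a median of -0.16. Ms4a1 (CD20) read -0.17, 0.40, -2.22 and -0.68 in Treg and 0.56, 2.52, 1.45 and 2.23 in naive cells, and Fcer2a (CD23) fell by 2.68 (SE 0.55), a call lost under normexp (-0.16). Of 22 myeloid and dendritic markers none rose and 1 fell, with summed levels of 125 to 289 in naive cells and 71.8 to 180.0 in Treg. The share of these differences that comes from other cells in the sorted fractions was not tested. Of 6 stromal and epithelial markers tested 3 rose: Col1a2 (1.49 ± 0.27), Krt18 (1.01 ± 0.36) and Epcam (0.77 ± 0.26). The summed levels of the 6 were 4.00 to 6.83 in naive cells and 5.52 to 7.77 in Treg. Of the 14 such markers on the array 8 were above background on no Treg array. Under quantile normalization 1 of these 6 rose and 1 fell, and the calls of Krt18 and Epcam were lost without single arrays of either group, Treg replicate 3 and naive replicate 1 among them. In bulk samples fewer cells of a type and less RNA per cell cannot be told apart.

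The genes of the naive and quiescent state fell in part. Of 35 members 17 fell (48.6%) and 2 rose (5.7%), with a median of -0.39. Under quantile normalization 12 fell and 7 rose and the median was 0, so the direction of the list as a whole depended on the scaling. The largest falls did not: Dapl1, a gene of naive T cells, read 3.15, 2.87, 1.6 and 2.33 in Treg and 6.36, 6.91, 6.41 and 6.81 in naive cells, a difference of -4.13 ± 0.34. Igfbp4 fell by 2.61 (SE 0.53) and the thymocyte signalling adaptor Themis by 2.00 (SE 0.17) on the log2 scale. Lef1 read 4.81, 4.59, 4.41 and 4.32 in Treg and 6.18, 6.11, 6.07 and 6.78 in naive cells, a difference of -1.75 ± 0.20, although its 2 other kept probes differed by -1.70 and 0.39. Tcf7, the partner of Lef1, read 4.41, 4.78, 4.23 and 4.52 against 5.24, 5.64, 5.55 and 6.23, a difference of -1.18 ± 0.24. The chromatin organizer Satb1, named after its values were seen, fell by 1.05 (SE 0.12). Klf2 differed by -0.43 ± 0.26 and was not called, like Ccr7 and S1pr1, the latter a gene it is known to drive.

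Of 35 genes of the T cell receptor complex and its proximal signalling 19 fell (54.3%) and 2 rose (5.7%), with a median of -0.43. Under quantile normalization the counts were 13 and 8 and the median -0.07. Cd3g read 4.29, 3.82, 3.52 and 3.54 in Treg and 5.18, 5.67, 5.39 and 4.54 in naive cells, a difference of -1.40 ± 0.25. Cd3d differed by -0.88 ± 0.20 and the zeta chain Cd247 by -0.98 ± 0.16, while Cd4 differed by -0.34 ± 0.15 and was not called (adjusted p = 0.0582). The phosphatase gene Ptpn6 fell by 1.02 on the log2 scale (SE 0.16).

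Downstream of the receptor, feedback genes of the MAP kinase pathway included some of the larger rises. Of 21 such genes 9 rose and 6 fell. The phosphatase Dusp4 read 4.49, 3.93, 4.5 and 4.79 in Treg and 0.37, 0.12, 0.31 and 0.86 in naive cells, a difference of 4.01 ± 0.20. Rgs16, which damps G protein signals, rose by 3.44 ± 0.32 and the inhibitor Spry1 by 1.49 ± 0.19, and Dusp14 was at least 4.57-fold higher. Dusp6 and Dusp7, phosphatases that act on ERK, fell by 0.82 (SE 0.16) and 1.39 (SE 0.17). Among 29 early response genes 10 rose and 6 fell, with a median of 0.31 (-0.32 with normexp background correction). Nr4a2 and Nr4a3 led the rises, with Egr4 at 1.81 ± 0.36, whereas Egr1 fell by 1.01 (SE 0.20) and Egr2 by 0.52 (SE 0.13). In the NF-kappaB list 7 of 30 rose (23.3%) and 6 fell (20%), beside 18.9% and 29.4% of all genes. Under quantile normalization the counts were 13 and 4, with a median of 0.31, and with normexp 2 and 9, with a median of -0.38. Nfkbiz rose by 1.33 ± 0.19 and Traf1 by 0.77 ± 0.18 (0.15 and not called with normexp), and the signalling genes Bcl10 and Malt1 fell by 0.85 (SE 0.17) and 0.74 (SE 0.10). Of 23 anergy-linked ligases and diacylglycerol kinases 6 rose (26.1%), Dgkg (1.6 ± 0.27) among them, and 7 fell (30.4%), beside 18.9% and 29.4% of all genes. The counts were 9 and 5 under quantile normalization and 2 and 9 with normexp. The ligase gene Itch differed by -0.64 ± 0.13 at its brightest probe and by 0.45 to 1.23 at 3 others.

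Genes of protein synthesis and respiration were lower in Treg as groups, by small amounts. Of 56 oxidative phosphorylation subunits 50 fell (89.3%) and none rose, with a median of -0.74. Cytosolic ribosomal proteins fell in 30 of 53 cases (56.6%, median -0.65) and ribosome biogenesis genes in 24 of 41 (58.5%, median -0.55), with no rise in either list. In the CKO comparison 13 of the 56, 4 of the 53 and 13 of the 41 fell, beside 16.7% of all genes. Cox6a1, a subunit of cytochrome c oxidase, read 8.0, 7.55, 7.05 and 7.15 in Treg and 8.33, 8.66, 8.47 and 8.61 in naive cells, a difference of -1.08 ± 0.20. Rpl28 differed by -1.29 ± 0.24 and Nhp2, a box H/ACA snoRNP protein, by -1.09 ± 0.21. In all 3 lists Treg replicate 1 was nearest to the naive arrays: the median difference of the oxidative phosphorylation list from the naive mean was -0.29 on that array and -0.61 to -1.03 on the others.

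These lists are of bright genes, and the difference between Treg and naive arrays moved with brightness over all genes. The median difference was 0.46 in the dimmest of 10 equal bins of genes by level and -0.48 in the brightest bin, and it was -0.46 in the brightest bin without the members of the ribosomal and oxidative phosphorylation lists. Of the 1649 genes in the brightest bin 933 were called lower and 76 higher. The falls in the ribosomal and oxidative phosphorylation lists are to be read beside that count too. Quantile normalization, which gives every array the same distribution, brought the brightest bin to -0.07. With it 26 of the 56 oxidative phosphorylation subunits fell, at a median of -0.32, as did 14 of 53 ribosomal proteins (-0.14) and 18 of 41 biogenesis genes (-0.21), and none rose. Of all 16488 genes 4222 fell under the same normalization, with a median of -0.10. The part that the lower signal of the Treg arrays plays in this trend was not tested. The Treg surface list had 36 of 39 members higher and a median of 2.95 under quantile normalization. With normexp background correction it had 30 higher, 2 lower and a median of 1.62.

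**Figure D2:**
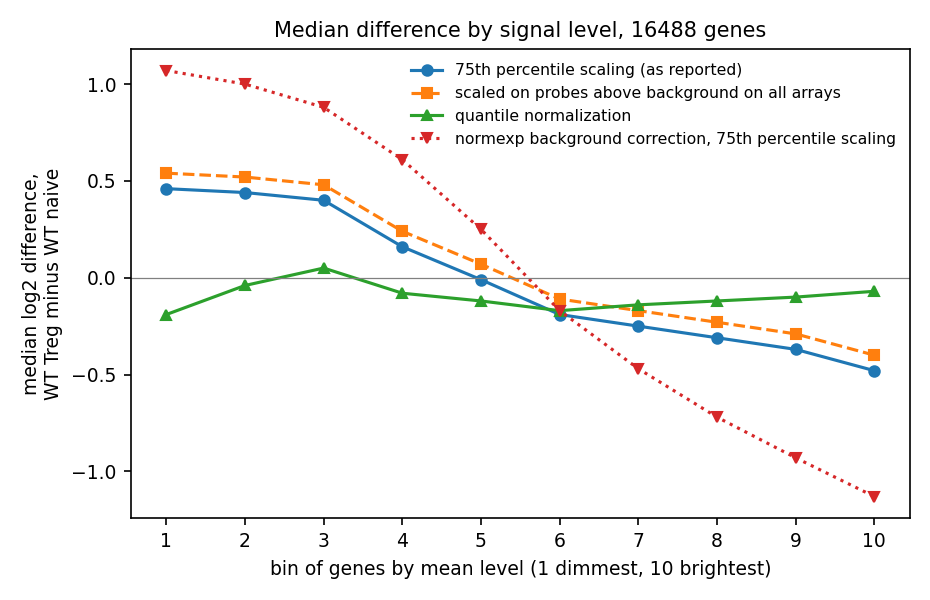
Median log2 difference, WT Treg minus WT naive, in each of 10 equal bins of the 16488 genes ordered by mean level, under 4 ways of scaling. It falls from 0.46 to -0.48 as reported and from 1.07 to -1.13 with normexp background correction, and stays between -0.19 and 0.05 with quantile normalization.

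Glycolysis genes divided: of 23, 5 rose and 11 fell, with a median of -0.43 that was -0.09 under quantile normalization. The lactate exporter Slc16a3 rose by 2.31 ± 0.18, the first kinase of the pathway, Hk2, by 2.06 ± 0.20 and the glucose transporter Slc2a3 by 1.03 ± 0.11, the last not called with normexp (0.47). The enzymes Aldoa and Pgk1 fell by 1.03 (SE 0.18) and 0.91 (SE 0.17). Pdk1, a kinase that inhibits pyruvate dehydrogenase, read 1.69, 1.38, 1.57 and 1.53 in Treg and 3.01, 3.14, 3.28 and 3.43 in naive cells, a difference of -1.67 ± 0.15. Of 46 cell cycle genes 15 rose (32.6%) and 6 fell (13.0%), with a median of 0.79. On the 4 arrays that share slides the list had 1 rise and 3 falls. Tk1, thymidine kinase, read 0.31, 1.04, 0.68 and 0.82 in Treg and -2.45, -1.04, -2.49 and -2.28 in naive cells, a difference of 2.78 ± 0.30. Mki67, the proliferation antigen, read 1.47, 2.43, 1.57 and 1.5 in Treg and 0.00, 1.30, -0.04 and 0.40 in naive cells, and rose by 1.33 ± 0.38. Replicate 2 was the highest array of both groups for both genes. The cyclin gene Ccnd3 fell by 0.66 (SE 0.13), and Cdk6, its kinase partner, rose by 1.46 ± 0.12.

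Interferon-stimulated genes were called lower in 10 of 40 cases (25%, beside 29.4% of all genes) and higher in 2. With normexp background correction 24 fell and 2 rose, with a median of -0.77, beside 5294 falls among all 16488 genes and a median of 0.16. Gbp3, a guanylate-binding protein, was an exception with a rise of 2.57 ± 0.26, reading 4.57, 4.51, 3.78 and 4.51 in Treg and 1.79, 2.24, 1.44 and 1.61 in naive cells. In the BCL2 family and cell death list 7 of 26 rose (26.9%) and 6 fell (23.1%), beside 18.9% and 29.4% of all genes. Pmaip1, which encodes the BH3-only protein NOXA, rose by 2.07 ± 0.24 and Casp4 by 1.45 ± 0.25. Among effector and memory genes the scaffold gene Ahnak stood out with 5.15, 5.15, 4.74 and 5.17 in Treg and 2.21, 2.29, 1.34 and 2.05 in naive cells, a difference of 3.08 ± 0.22. Of the 32 genes of that list 7 rose (21.9%) and 9 fell (28.1%), close to the 18.9% and 29.4% of all genes. In the list of Trim28 partners and other silencing genes 5 of 26 rose (19.2%), Uhrf1 (1.21 ± 0.24) among them, and 3 fell (11.5%), beside 18.9% and 29.4% of all genes. With normexp 4 rose and 10 fell. Trim28 was 1 of these (-0.45 ± 0.17), a call that was lost when any of 6 of the 8 arrays was left out.

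**Figure D3:**
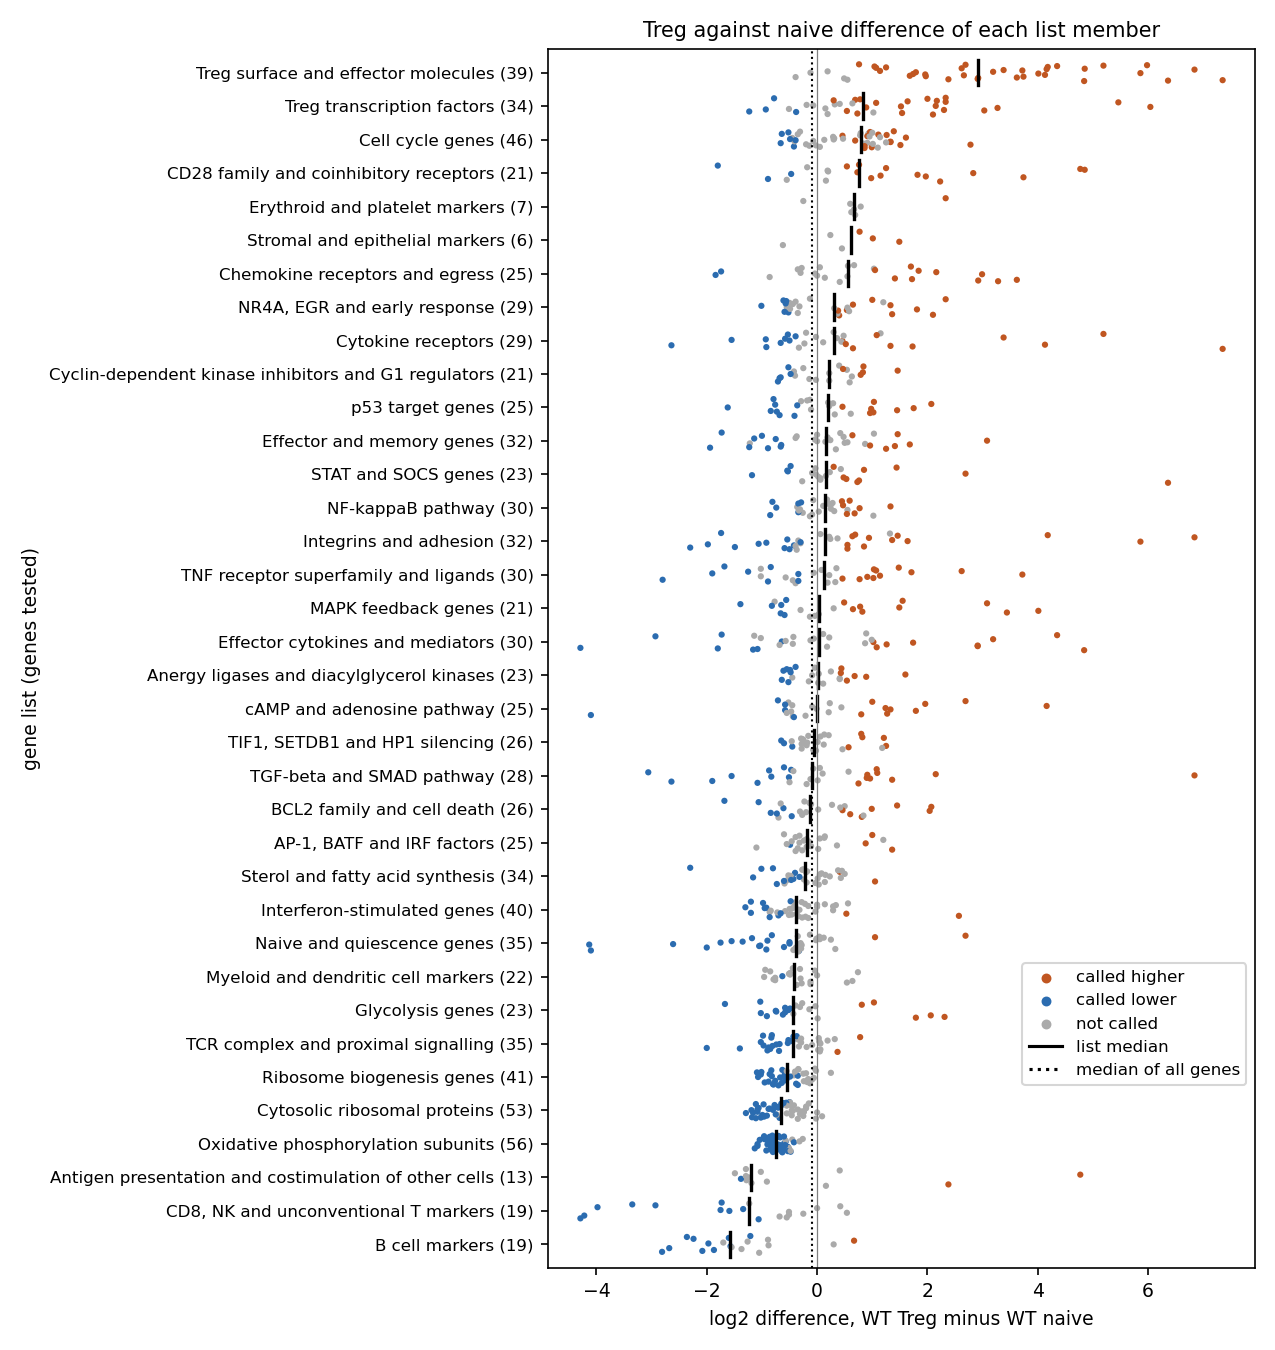
Log2 difference of every tested member of 36 gene lists, WT Treg minus WT naive, with called rises, called falls and genes not called in separate colours, list medians as bars and the median of all genes (-0.09) as a dotted line. Lists are ordered by median, from B cell markers (-1.57) to Treg surface and effector molecules (2.91), and under quantile normalization the naive list moves to a median of 0.

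Several of the largest differences fell outside the lists of known Treg genes. Dst, which encodes the cytoskeletal linker dystonin, read 0.74, 1.12, 0.73 and 1.08 in Treg and -3.96, -3.32, -4.17 and -3.84 in naive cells, a difference of 4.74 ± 0.30, with 4 other probes at 2.63 to 4.68. Fsd1l rose by 5.0 ± 0.38. Among genes above background on all Treg arrays and on no naive array, Fam160a1 was at least 50.3-fold higher, the small GTPase effector gene Rtkn at least 11.2-fold and the retinoic acid-producing enzyme gene Aldh1a2 at least 10.7-fold. Over the alternatives run, the smallest log2 differences of Fam160a1, Rtkn and Aldh1a2 were 2.53, 0.89 and 0.83. The laminin chain Lama5 was at least 10.2-fold and the collagen Col15a1 at least 8.78-fold higher. Their smallest log2 differences over the alternatives were 0.75 and 0.54. On the other side the largest fall was Pdlim4, a PDZ and LIM domain protein, which read -0.37, -0.46, -2.37 and -0.89 in Treg and 5.92, 6.07, 5.27 and 6.2 in naive cells, a difference of -6.89 ± 0.33. Its other kept probe differed by 0.93, so the probes of Pdlim4 disagree. Ggt5, a gamma-glutamyl transferase that acts on leukotriene C4, read -2.60, -2.67, -2.75 and -2.84 in Treg and 2.53, 2.66, 3.01 and 3.28 in naive cells, a difference of -5.59 ± 0.16, and its other probe gave -5.61. Lypd6b read -2.47, -3.30, -2.34 and -2.57 against 2.52, 2.31, 2.62 and 2.84, a difference of -5.24 ± 0.34. Cyp2s1, a cytochrome P450, fell by 3.71 (SE 0.25), Vipr1, the receptor for vasoactive intestinal peptide, by 3.19 (SE 0.18), App, the amyloid precursor gene, by 3.45 (SE 0.52) and Adh1, an alcohol dehydrogenase, by 3.11 (SE 0.31). With normexp App stood at -0.73 and was not called. Lrrc75b was above background on all naive arrays and no Treg array and was at least 31.6-fold lower in Treg. Its smallest log2 difference over the alternatives run was -1.70. In all, 80 called genes were seen above background in Treg alone and 88 in naive cells alone. Of these, 73 and 50 had groups that did not overlap and a bound above 1-fold. The lowest signal well above background, which enters the bounds, was -5.07 to -3.3 on Treg arrays and -5.64 to -4.74 on naive arrays. The 2 counts with bounds are thus not on the same footing.

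WT naive cells after 13 h of stimulation share the resting naive arrays as their control, so their differences are set beside those of Treg without a measure of likeness. Some genes of the Treg list were as high or higher after stimulation: Il2ra differed by 7.72 in stimulated cells and 7.35 in Treg, Tnfrsf4 by 4.23 and 3.72, and Pdcd1 by 5.18 and 1.82. All 3 were called in both comparisons. Others were lower or not called in stimulated cells. Foxp3 differed by -0.98 ± 0.20 in stimulated cells against 6.04 in Treg, Ikzf2 by -1.90 ± 0.23 against 5.46, Itgae by -1.54 ± 0.33 against 5.86 and Entpd1 by -4.09 ± 0.41 against 4.16, all 4 called, with Entpd1 above background on no stimulated array. Ctla4 differed by 0.09 ± 0.28 against 4.85 and was not called in stimulated cells (adjusted p = 0.81). Ribosome biogenesis genes had a median of 2.19 in stimulated cells and -0.55 in Treg, and oxidative phosphorylation subunits of 1.03 and -0.74. Ggt5 and Dapl1 were lower in both, with differences of -5.40 and -2.89 in stimulated cells.

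The same comparison in CKO mice sets other arrays against each other than the WT comparison. Both came from 1 fit, which shared its estimate of spread, probe filter and probe choice over all 24 arrays. The 2 sets of calls are therefore not independent. There 4666 genes were called (28.3%), 1910 higher and 2756 lower. The calls shared in direction numbered 3540, which is 44.4% of the WT calls and 75.9% of the CKO calls, and 12 genes were called in opposite directions. A test of the difference between genotypes called 65 genes (0.394%), and 2231 had an unadjusted p under 0.05. Without WT naive replicate 4 it called 358. With normexp background correction it called 7, of which 4 were among the 65 in the same direction. The 75th percentile signal was 31.3 to 116 on CKO Treg arrays and 171 to 266 on CKO naive arrays. The part that the lower signal or the TCR-stimulated label of the CKO Treg plays in the gaps between genotypes was not tested. Of the 39 Treg surface genes 30 rose in CKO, with a median of 2.19, and 4 differed between genotypes by the fit. Plagl1 rose by 5.98 in WT and 2.85 in CKO (difference 3.13, adjusted p = 0.000354), Nrp1 by 4.18 and 1.76 (2.42, adjusted p = 0.0133) and Il2ra by 7.35 and 6.13 (1.22, adjusted p = 0.00998). The fourth was Itgb8, which was above background on no naive array of either genotype, so its naive levels and the size of its gap were not measured. For Foxp3 the rises were 6.04 and 5.16, and their difference was not called (adjusted p = 0.214). Rora rose by 2.00 in WT and differed by 0.13 ± 0.22 in CKO, a gap of 1.87 that passed the test (adjusted p = 0.0041). Tgfbr2 fell by 1.55 in WT and 0.57 in CKO, and the gap also passed (adjusted p = 0.00654).

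**Figure D4:**
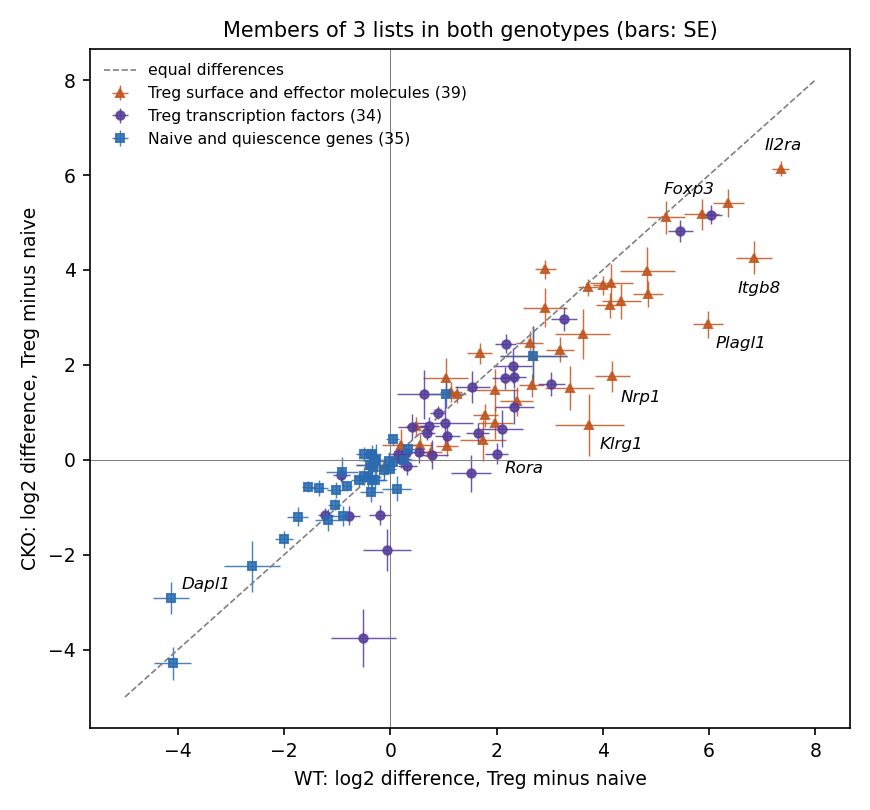
Log2 difference, Treg minus naive, in WT (horizontal) and CKO (vertical) for the members of 3 lists, with standard errors as bars and a dashed line where the genotypes are equal. Plagl1, Nrp1, Itgb8, Il2ra and Rora, which passed the test of the difference, lie below the line, Itgb8 with naive levels below background in both genotypes.

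Genes with the largest gaps between genotypes were mostly dim in WT. Slc1a4, a neutral amino acid transporter, rose by 4.68 ± 0.33 in CKO, and in WT it was above background on 3 naive arrays and no Treg array and took the other sign with normexp (0.86). Cgnl1 and Adad2 were above background on none of the 8 WT arrays and on no CKO naive array, so no difference was measured for them in WT. Cybrd1, a ferric reductase, had no probe above background on all 8 WT arrays. Over the 20 alternatives that tested it, it kept its call in WT, with a difference of 0.31 to 2.27. It read -2.18, -2.53, -2.57 and -2.25 in WT Treg and -4.33, -4.57, -4.76 and -4.61 in WT naive cells, a rise of 2.19 ± 0.22, and fell by 1.45 (SE 0.22) in CKO (adjusted p = 7.28e-07). Galnt14, a glycosyltransferase, rose by 3.81 ± 0.43 in WT, where 1 naive array was above background, and differed by 0.06 ± 0.43 in CKO, where no Treg array was (adjusted p = 0.00345).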

How the data were processed

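RNA from sorted T cells was labelled with Cy3 by a low-input method and hybridised to 24 one-colour Agilent mouse arrays, 4 in each of 6 groups, per the labels' protocols. The deposited scanner files hold intensity values, background-subtracted and detrended within each array by Agilent Feature Extraction 9.5, per the file headers and the submitters' processing notes. The authors' own deposited table holds normalized intensity with the same distribution in every column, and its method is not given in the sources used here.

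Control and outlier spots were left out, log2 of the processed intensity was taken relative to the array's 75th percentile, and repeat spots were merged by their mean. Probes had to exceed background clearly in 3 of 4 arrays of any group, and a gene took its brightest kept probe. This left 25198 of 41174 probes and 16488 genes. Names came from a RefSeq table (GRCm38.p6) for 22958 probes by accession, 6659 by current symbol and 3105 by synonym, and 8452 kept the file's name. Group means over all 24 arrays were fitted with limma 3.58.1 in R 4.3.3, with Benjamini-Hochberg adjustment and a threshold of 0.05. For 5 genes a compared array had no value. Where a gene was above background on no array of one group, only a bound is given: the mean of the bright group against, per array, the higher of the probe's signal and the lowest signal well above background. A bound holds for the processing as reported. Alternatives gave smaller log2 differences, down to 0.37 for Ccr8, 0.19 for Gpr15 and 0.01 for Dusp14. The number of arrays limits the precision.

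Genes were named by rule: the defining genes, the 15 largest rises and falls whose groups do not overlap, up to 8 genes seen in one group only, up to 8 called and 4 uncalled members of each of 36 lists, all members of the 2 Treg lists and the 8 largest differences between genotypes. A few genes that the rule names are not reported here. The comparison, the members and the lists were chosen with earlier results of these data known. On simulated data with 200 of 16488 genes changed, the WT Treg against naive fit recovered 13.4% of changes of 0.5, 58.2% of 1 and 81.8% of 2 on the log2 scale, with 3 false calls. The simulated noise was independent between genes and arrays, without slides or a trend with brightness. With 7973 genes called in the data, these rates do not carry over to the comparison itself. Alternatives covered normalization, background correction, scaling, the filter on dim probes, the probe chosen, the arrays in the fit, slide, replicate number, weights, a signal floor and single arrays left out.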

Additional observations from a re-analysis of the deposited data

Results flagged for a closer look

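In 18 of 336 sets of 4 arrays (168 genes, WT Treg and WT naive) 1 array stood apart from the other 3, where chance gives about 5% of sets. There were 9 in each group. Treg replicate 1 was the lowest for Acvr2a (-2.26, the others -1.43 to -1.29), Ccr4 (-1.69, the others -0.80 to -0.66) and Cd4 (-0.76, the others -0.34 to -0.30). It was the highest for Tnfrsf1b (1.95, the others 1.47 to 1.49). Treg replicate 2 was the highest for Mki67 (2.43, the others 1.47 to 1.57). Treg replicate 3 was the lowest for Ahnak (4.74, the others 5.15 to 5.17), Gbp3 (3.78, the others 4.51 to 4.57) and Gzma (-4.70, the others -3.83 to -3.74), and Treg replicate 4 for Krt18 (-2.92, the others -2.41 to -2.34). Naive replicate 1 was the lowest for Fam160a1 (-7.22, the others -5.24 to -5.04) and Gzma (-0.57, the others 0.50 to 0.69). Naive replicate 2 was the highest for Casp4 (1.92, the others 0.75 to 0.84), Galnt14 (-4.18, the others -5.59 to -5.46) and Tk1 (-1.04, the others -2.49 to -2.28). Naive replicate 4 was the highest for Adad2 (-6.70, the others -7.34 to -7.27), Cgnl1 (-6.67, the others -7.41 to -7.32) and Lef1 (6.78, the others 6.07 to 6.18), and the lowest for Il2rg (1.64, the others 2.87 to 3.02). Adad2, Cgnl1 and Fam160a1 were above background on no WT naive array and Galnt14 on 1, so their values there are no measured levels.

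The Treg against naive difference itself differed between WT and CKO, by the test of that difference, for 11 of the genes described. As the WT minus the CKO value it was 3.64 for Cybrd1, 3.76 for Galnt14, 3.13 for Plagl1, 2.58 for Itgb8, 2.42 for Nrp1, 1.87 for Rora and 1.22 for Il2ra. It was -6.22 for Slc1a4, -4.24 for Cgnl1, -3.83 for Adad2 and -0.98 for Tgfbr2. The values of Itgb8, Slc1a4, Cgnl1 and Adad2 rest on a WT group in which no array was above background, and that of Galnt14 on one with 1 such array and on CKO Treg with none, so their sizes are fitted values and no measured differences.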

How the results depend on the processing

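The count of genes called between WT Treg and WT naive cells (7973) stayed within 1.5 times under all alternatives run, from 5777 on the 4 arrays of the shared slides, chosen after seeing the data, to 11552 with normexp background correction. The genes called changed more than the count. Of the 7973 calls, 5750 were made in the same direction under quantile normalization and 6220 with normexp. Leaving out 1 array gave 6379 to 8461. For CKO (4666) the count was 8845 with normexp and 11679 with no filter on dim probes, and 3283 to 4945 without 1 array. The count for the difference between genotypes (65) was 102 with quantile normalization, 7 with normexp, 101 with the authors' values, 22 with only probes above background on all compared arrays, 848 with array weights and 246 with a signal floor. Without 1 array it was 52 to 358, the highest without WT naive replicate 4. The cause was not tested. Deviations of same-numbered Treg and naive arrays correlated at 0.06, 0.47, 0.35 and 0.27, so the pair of replicate 1 did not deviate together and the replicate number was not taken as a pairing. Of the 8 arrays 6 correlated best with their own number, a hint from the data and not from the design, and replicates 2 and 4 shared slides across the groups. With the replicate number as a block the 3 counts were 8637, 5388 and 101.

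Of 168 genes named, 114 kept their call, or stayed uncalled, under every alternative. The called genes among them also kept their direction. Uncalled ones could change sign, as did Ifng, which ran from -0.22 to 0.34. Calls were lost under quantile normalization for Adad2, Ccnd3, Cd3e, Cgnl1, Epcam, Il2rg, Il7r, Jak1, Krt18 and Trim28, and with a signal floor for Dgkg, Dusp14, Egr4, Epcam, Gpr15 and Havcr2 among others. Under the mean of kept probes they were lost for Bcl10, Cd247, Cd3e, Malt1, Ptpn6 and Runx1 among others. On the arrays of the shared slides Alcam, Gzmb, Mki67 and Runx3 among others lost theirs. Under normexp Eng (0.67), Klrc1 (0.19), Slc1a4 (0.86), Tgfbr3 (0.27) and Tnfsf4 (0.79) reversed, and with the mean of kept probes Itch (0.49) did. A single array decided a call for 9 genes: Trim28, Il2rg, Il7r, Krt18, Epcam, Cd3e, Cgnl1, Glrx and Cst7. Dim genes are limited by signal over background, above all on Treg replicate 4.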
